A study of Homo sapiens with 24 samples.

Results

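The data described here were the 6 libraries of HEK293 cells that received an EVI1 plasmid and then H2O2, 3 labelled EVI1-AQA and 3 labelled EVI1-WT, out of 24 libraries in the series. They were chosen by the construct and treatment in their labels, and each EVI1-AQA library was paired with the EVI1-WT library of its batch, 1 pair in each of 3 batches. HEK293 is an established human embryonic kidney cell line. The cells were transiently transfected with the plasmid pCMV-EVI1-WT-flag or its mutated counterpart pCMV-EVI1-AQA-flag, in which the viral CMV promoter drives flag-tagged human EVI1, and were exposed to 150 μM H2O2 for 8 h. The same constructs without H2O2 (3 libraries each, 8 h) served as reference, and untransfected cells and cells with the empty pCMV-flag plasmid made up the other 12 libraries. A transient transfection leaves some cells of each culture without plasmid, and nothing in the labels says whether the 3 replicates came from separate cultures, so p-values measure the spread between these libraries only.

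EVI1 is a zinc finger transcription factor encoded by MECOM. It is needed for the maintenance of haematopoietic stem cells, is overexpressed in a group of aggressive myeloid leukaemias, and recruits corepressors such as CtBP1 together with histone-modifying enzymes. ATM is the kinase that is activated by DNA double-strand breaks and by oxidants such as H2O2 and phosphorylates serines that are followed by glutamine. EVI1-AQA carries alanine in place of serines 858 and 860 of a carboxy-terminal serine-glutamine-serine site, so that the site cannot be phosphorylated, and the comparison with EVI1-WT under H2O2 asks how the transcriptome differs when this modification is prevented under oxidative stress.

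The coding sequence around the 2 serines is shown because it is the only designed difference between the groups. It was read from GRCh38 with the GENCODE v44 model MECOM-208, a protein of 1051 residues, at chr3:169092966-169092998 on the minus strand, within exon 13. The capitals mark the serine codons 858 and 860, with the glutamine codon between them.
MECOM site: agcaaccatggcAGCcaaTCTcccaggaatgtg

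The deposited values are log2 expression after the authors' normalization, and each transcript has a mean of 0 over the 8 libraries of its batch. They therefore give differences within a batch and no absolute level, and the depth of the libraries is unknown. Genes are named only from the 1131 rows whose identifiers lie on chromosome 1. On this chromosome 50.7% of the annotated coding genes and 2.39% of the other genes had a row, whereas on chromosomes 2 to 22 these shares were 19.3% and 16.4%, so row labels of chromosomes 2 to 22 were counted but not read as genes. All 4 genes expected to have a row in HEK293 cells (NES, STMN1, ENO1 and HDAC1) had one, and 0 of 11 blood and endothelial markers did. A row shows only that the transcript passed the authors' expression cutoff, so these counts do not identify the cell line.

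Of the 6 libraries, 2 went against their labels in a row that otherwise followed the EVI1 plasmid. This row, labelled CACNB3 with an identifier on chromosome 12, lay between 2.62 and 4.14 in the untreated EVI1-WT and EVI1-AQA libraries and between -4.49 and -1.64 in the untreated libraries without EVI1. With H2O2, it was 4.91, -4.38 and 3.27 in the EVI1-WT libraries of batches 1, 2 and 3. In the EVI1-AQA libraries of the same batches it was -2.60, 4.79 and 3.73. The library labelled EVI1-WT replicate 2 and the library labelled EVI1-AQA replicate 1 were thus in the range of cells without EVI1, and the library labelled empty vector H2O2 replicate 2, at 4.36, was in the range of cells with it. All libraries kept their labels in the comparisons, and counts of rows are also given without those 2 libraries.

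**Figure D1:**
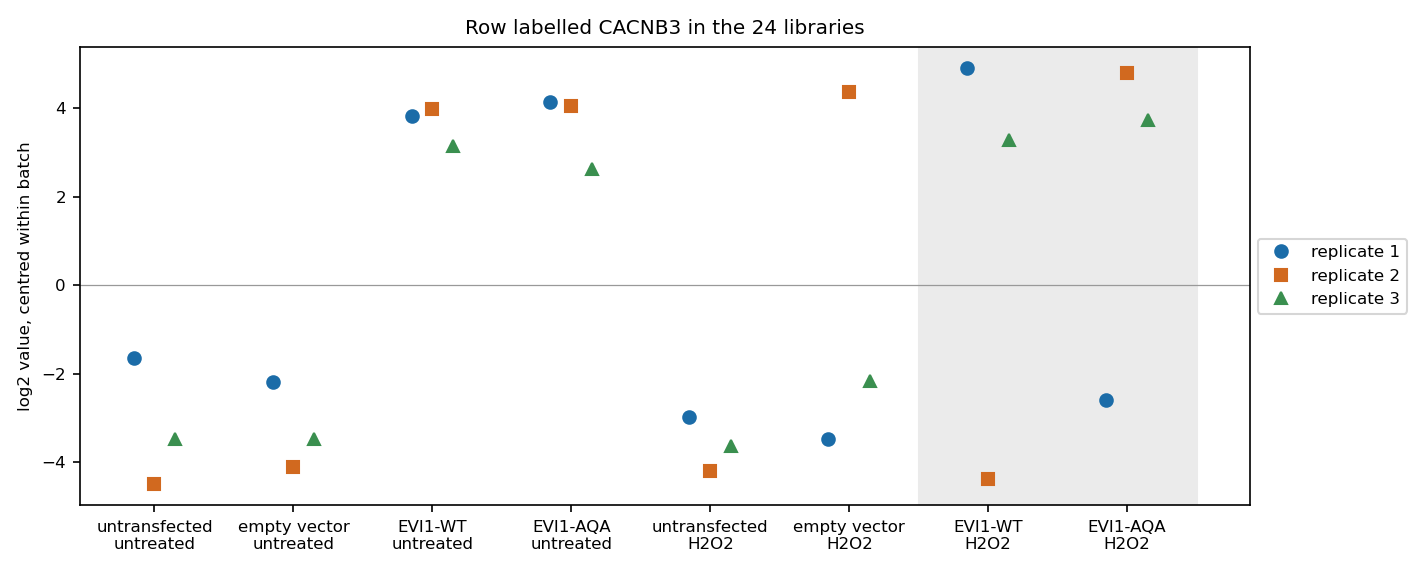
Value of the row labelled CACNB3 (log2, centred within batch, vertical axis) in each of the 24 libraries, by group (horizontal axis) and replicate (marker). The shaded groups are those compared here: EVI1-WT replicate 2 at -4.38 and EVI1-AQA replicate 1 at -2.60 lie apart from the other 4 libraries, which lie between 3.27 and 4.91.

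The 3 batches did not repeat each other equally. Over all 11579 rows, the EVI1-AQA minus EVI1-WT differences under H2O2 had a Pearson correlation of 0.358 between batches 2 and 3, of 0.0723 between batches 1 and 3 and of -0.0509 between batches 1 and 2. The rows of chromosome 1 gave 0.345, 0.0753 and 0.0108 in the same order. Batch 1 holds the doubted EVI1-AQA library and batch 2 the doubted EVI1-WT library. Among the libraries themselves, EVI1-AQA replicates 2 and 3 correlated at 0.538, and EVI1-AQA replicate 1 correlated with them at 0.0730 and -0.0639. With empty vector H2O2 replicates 1, 2 and 3 it correlated at -0.0511, -0.000786 and -0.00553. EVI1-WT replicates 1 and 3 correlated at 0.268, and EVI1-WT replicate 2 correlated with them at 0.226 and 0.193. With the empty vector H2O2 replicates EVI1-WT replicate 2 correlated at 0.141, 0.228 and 0.106. Empty vector H2O2 replicate 2, which also went against its label, correlated at 0.36 and 0.328 with EVI1-WT replicates 1 and 3. With empty vector H2O2 replicates 1 and 3 it correlated at 0.128 and 0.1005. The untreated EVI1-AQA minus EVI1-WT differences correlated at 0.136, -0.0230 and 0.0373 between batches 1 and 2, 1 and 3, and 2 and 3. These are correlations across rows, which share their libraries and the centring, and are given as a description.

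**Figure D2:**
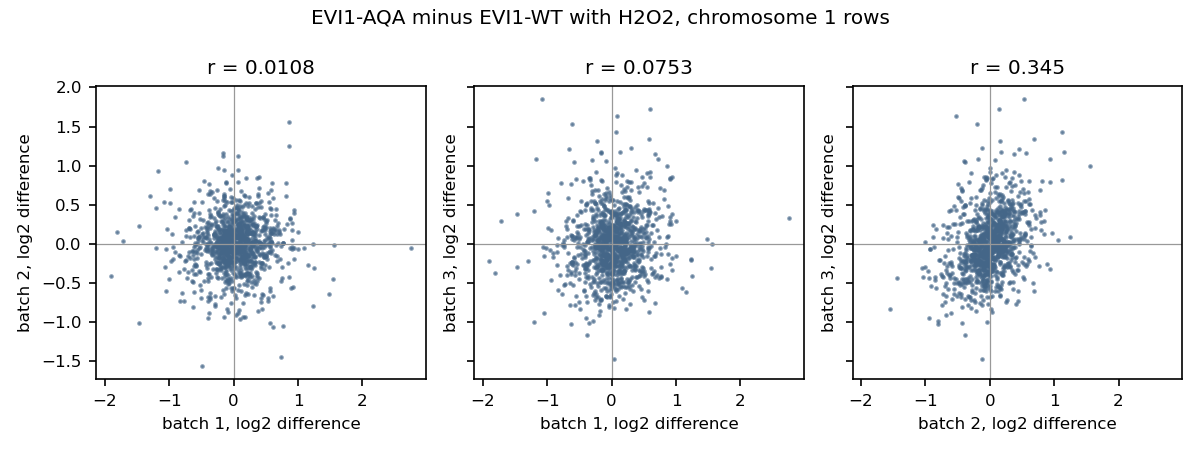
EVI1-AQA minus EVI1-WT log2 difference under H2O2 in 1 batch against another, each point being 1 of 1131 chromosome 1 rows, with Pearson's r above each panel. The cloud is tilted for batches 2 and 3 (r = 0.345) and close to round for the pairs with batch 1 (r = 0.0108 and 0.0753).

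Under H2O2, 964 of the 11579 rows (8.33%) differed between EVI1-AQA and EVI1-WT at an unadjusted p under 0.05 in limma's two-sided test with the batch as a block, 410 higher (3.54%) and 554 lower (4.78%) in EVI1-AQA. The same constructs without H2O2 differed in 390 rows (3.37%), 201 higher (1.74%) and 189 lower (1.63%). On chromosome 1, 92 of 1131 rows (8.13%) passed under H2O2, 42 higher and 50 lower, against 45 rows (3.98%) without H2O2. The share on chromosome 1 was therefore close to that over all rows. At an adjusted p under 0.05 limma called 1 of the 11579 rows (0.00864%), a lower one on another chromosome, and 0 rows of chromosome 1, so every gene called higher or lower from here on passed at the unadjusted threshold alone. Adjusted p is given for the leading genes and as a range or lower bound for sets of genes, and values of some genes that did not pass are given too.

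Without the libraries labelled EVI1-AQA replicate 1 and EVI1-WT replicate 2, 1179 rows (10.2%) passed at the unadjusted threshold, 533 higher (4.6%) and 646 lower (5.58%). On chromosome 1 there were then 48 higher and 55 lower rows, and 57 of the 92 calls (62.0%) remained. The EVI1-AQA and EVI1-WT values did not overlap in 183 chromosome 1 rows (16.2%, against 15.8% of all rows), of which 97 were higher and 86 lower in EVI1-AQA, against 7.67% and 8.08% of all rows. Of the 92 calls, 36 of the higher and 47 of the lower ones had the same direction in all 3 batches.

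Ranked by p, the leading chromosome 1 genes with higher values in EVI1-AQA cells encoded a transcription and splicing kinase, a splicing factor and membrane transporters. CDK11B, a cyclin-dependent kinase that acts on RNA polymerase II and the splicing machinery (chr1:1635225-1659012, minus strand), had the lowest p. Its values were 0.58, 0.60 and 0.39 in the EVI1-AQA libraries of batches 1 to 3 and -0.23, -0.18 and -0.29 in the EVI1-WT libraries. All EVI1-AQA values lay above all EVI1-WT values, with a difference of 0.76 ± 0.17 (SE) on the log2 scale and an adjusted p of 0.205 in limma. CDK11B has a near-identical neighbouring copy, CDK11A, and its last 1000 bases overlap exons of MMP23B on the other strand, so the split of reads between these genes is uncertain.

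PRPF38B, a pre-mRNA splicing factor, measured 0.42, 0.77 and 0.39 with EVI1-AQA and 0.03, 0.16 and 0.11 with EVI1-WT (difference 0.42 ± 0.15). In CDK11B and PRPF38B the doubted libraries lay with the other libraries of their labelled group, and the differences without them were 0.76 and 0.53.

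KCNC4, a voltage-gated potassium channel, was 0.01, 0.00 and 0.28 with EVI1-AQA and -0.22, -0.48 and -0.53 with EVI1-WT. ATP2B4, a plasma membrane pump that exports calcium, was 0.25, -0.01 and -0.04 against -0.75, -0.16 and -0.34. TATDN3, a member of the TatD family of putative deoxyribonucleases, was -0.02, 0.17 and 0.07 against -0.36, -0.35 and -0.33. The groups did not overlap in any of these 3, and the differences were 0.51 ± 0.17, 0.48 ± 0.18 and 0.42 ± 0.16. That of ATP2B4 became 0.38, with an unadjusted limma p of 0.0756, without EVI1-AQA replicate 1 alone. TMEM222, a transmembrane protein, was highest in the library labelled EVI1-AQA replicate 1 (0.79, 0.38 and 0.21 against -0.12, 0.19 and -0.14), and its difference of 0.48, with an unadjusted limma p of 0.0124, was 0.41 without the doubted libraries, with a p of 0.0502.

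Some other rows were higher mainly through batches 2 and 3, or through 1 low EVI1-WT library. ZBED6, a transcription factor derived from a DNA transposon, was -0.20, 0.93 and 1.15 with EVI1-AQA and -0.27, -0.20 and -0.28 with EVI1-WT. The EVI1-AQA replicate 1 value lay within the EVI1-WT range, and the difference of 0.88 ± 0.30 became 1.42 without the doubted libraries. ZBED6 shares exons at its end with ZC3H11A on the same strand, and reads of these genes cannot be told apart there. The row of ZC3H11A itself differed by 0.06 and did not pass.

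PRRC2C, a protein of RNA granules, was -0.05, 0.35 and 0.12 against -0.12, -0.11 and -0.77. CCDC18, a coiled-coil protein, was 0.31, 0.23 and -0.12 against -0.35, -0.14 and -1.28. In both, EVI1-WT replicate 3 was the lowest library of the 6, and CCDC18 had an unadjusted limma p of 0.0536 without EVI1-AQA replicate 1. RPL5P4 and SEC63P1, processed pseudogenes of a ribosomal protein and of a translocon component, had differences of 1.14 ± 0.37 and 0.60 ± 0.20, and reads can be shared with their parent genes. The row of RPL5, the parent of RPL5P4, differed by 0.09 and did not pass. Per batch, RPL5P4 differed by 0.87, 1.56 and 1.00, and SEC63P1 by 0.07, 0.94 and 0.79. Over the 12 higher genes that the rule for naming selected, adjusted p ranged from 0.205 to 0.478 in limma. The groups did not overlap in 11, beside 7.67% of all rows, and 11 kept an unadjusted p under 0.05 without the doubted libraries, beside 4.6%. The genes were selected by p and direction on these same libraries, so both counts follow largely from the selection.

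Genes that were lower in EVI1-AQA cells included the nuclear lamina gene LMNA, the Wnt coactivator PYGO2 and the ubiquitin ligase TRIM11. TRIM11 (chr1:228393673-228406835, minus strand) measured -0.33, -0.27 and -0.31 in the EVI1-AQA libraries and 0.19, 0.25 and 0.13 in the EVI1-WT libraries. The libraries of each group lay close together and the groups differed by -0.49 ± 0.13, with an adjusted p of 0.275 in limma. PYGO2, a chromatin reader of the beta-catenin complex (chr1:154957026-154963853, minus strand), measured -0.17, -0.10 and -0.30 against 0.25, 0.21 and 0.18. Its difference was -0.40 ± 0.13, again with no overlap.

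LMNA, which encodes lamins A and C (chr1:156082573-156140081, plus strand), measured -0.08, -0.72 and -0.43 with EVI1-AQA and 0.12, -0.04 and 0.47 with EVI1-WT. CPTP, which transfers ceramide-1-phosphate between membranes, measured -0.07, -0.72 and -0.41 against 0.34, -0.04 and 0.25. In both the library labelled EVI1-AQA replicate 1 was the highest of its group and the library labelled EVI1-WT replicate 2 the lowest, so that the doubted libraries stood nearest to the opposite group. The differences of -0.60 ± 0.18 for LMNA and -0.58 ± 0.19 for CPTP became -0.94 and -0.92 without them.

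ADGRB2, an adhesion G protein-coupled receptor (chr1:31727117-31764893, minus strand), measured -0.68, -0.82 and -0.74 with EVI1-AQA and 0.09, -0.09 and -0.10 with EVI1-WT. All 3 EVI1-AQA values lay below those of the other 21 libraries of the series. CCDC23, now named SVBP, which binds the tubulin-detyrosinating vasohibins, measured -0.48, 0.01 and -0.08 against 0.58, 0.60 and 0.79. It had the lowest p among the lower rows, with a difference of -0.84 ± 0.23 and an adjusted p of 0.275 in limma.

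The other lower rows named by the same rule were STPG1 (-0.49 ± 0.14), a sperm-tail repeat protein, EVA1B (-0.69 ± 0.23), a small transmembrane protein, the antisense RNA PINK1-AS (-0.64 ± 0.18), the long noncoding RNA LINC00623 (-0.82 ± 0.28) and the pseudogene EI24P2 (-0.96 ± 0.27). In batches 1 to 3 STPG1 differed by -0.56, -0.12 and -0.78 and EVA1B by -0.29, -0.80 and -0.99. PINK1-AS differed by -0.38, -0.38 and -1.16 and LINC00623 by -0.64, -0.80 and -1.02, so that the difference was largest in batch 3 for each of these 4 rows. EI24P2 had 1 library far below the others, EVI1-AQA replicate 2 at -1.40 against -0.27 and -0.48. Reads of PINK1-AS and PINK1 cannot be separated unless the counting used strand, which is not stated, and the ends of TRIM11 and EVA1B overlap exons of another gene on the opposite strand. For the 12 lower genes selected in the same way adjusted p ranged from 0.275 to 0.378 in limma. The groups overlapped in 0 of them, while 8.08% of all rows were lower without overlap. All 12 kept an unadjusted p under 0.05 without the doubted libraries, beside 5.58% of all rows. Here too both counts follow largely from the selection on these same libraries.

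**Figure D3:**
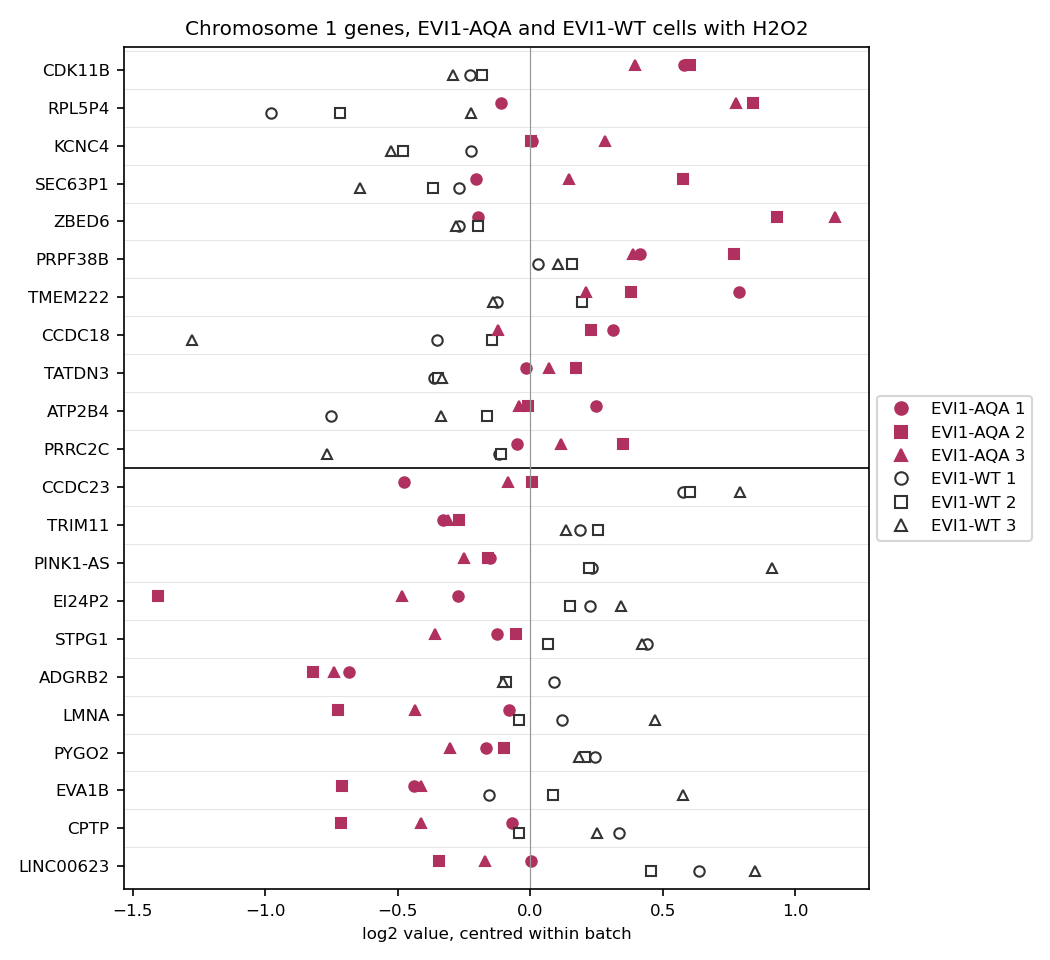
Log2 values centred within batch (horizontal axis) of chromosome 1 genes with the lowest p in each direction, 11 higher (above the line) and 11 lower in EVI1-AQA (below it). Filled markers are the 3 EVI1-AQA and open markers the 3 EVI1-WT libraries with H2O2, with circle, square and triangle for replicates 1, 2 and 3, and ZBED6 is the gene among these in which the groups overlap.

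The interaction of construct and H2O2 was tested directly, as the change of the EVI1-AQA minus EVI1-WT difference from untreated to treated cells. It passed at an unadjusted p under 0.05 in 879 rows (7.59%), 403 with a rise (3.48%) and 476 with a fall (4.11%) of the difference, and in 96 chromosome 1 rows (8.49%). At an adjusted p under 0.05, limma called 0 rows for the interaction and 0 rows for the untreated comparison. Of the 92 chromosome 1 rows called under H2O2, 3 were also called in untreated cells and 52 also for the interaction, a test that contains the same H2O2 difference.

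STPG1, ADGRB2, SNRNP40, LINC00623 and CCDC23 had the lowest interaction p among the rows whose difference fell in all batches. ADGRB2 was 0.69, 0.58 and 0.98 with EVI1-AQA and 0.55, 0.40 and 0.32 with EVI1-WT in untreated cells, so the untreated difference was 0.33 and the treated one -0.71. The interaction was -1.04 ± 0.29, with an adjusted p of 0.565 in limma. SNRNP40, a protein of the U5 splicing particle, had 0.13, 0.06 and 0.33 against -0.25, -0.27 and -0.04 untreated. With H2O2 it had 0.06, -0.25 and -0.24 against 0.14, 0.22 and 0.06, and the interaction was -0.64 ± 0.20.

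In the opposite direction, C1orf50, an open reading frame gene, had -0.72, -0.33 and -0.41 with EVI1-AQA against 0.29, 0.20 and -0.17 with EVI1-WT in untreated cells. With H2O2 it had 0.46, 0.14 and 0.47 against -0.22, -0.10 and 0.08, and the interaction was 1.03 ± 0.28. The difference between the constructs was thus -0.59 without and 0.43 with H2O2. The remaining 4 rows named by this rule, CTD-2090I13.2, RP11-570P14.1, RP11-90H3.1 and RP11-318C24.1, were processed pseudogenes, and their untreated differences ranged from -0.63 to -0.30. Without the doubted libraries the treated difference of C1orf50 was 0.36, with an unadjusted limma p of 0.188.

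**Figure D4:**
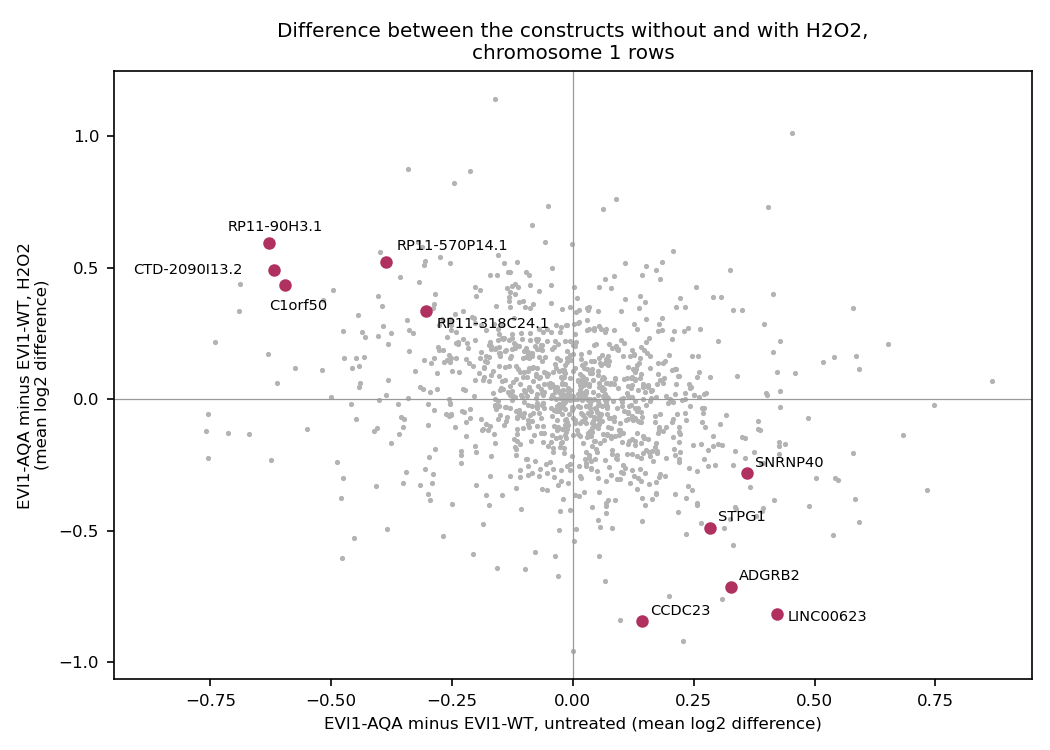
Mean EVI1-AQA minus EVI1-WT log2 difference without H2O2 (horizontal axis) and with H2O2 (vertical axis) for the 1131 chromosome 1 rows (grey), with the 5 rows of lowest interaction p in each direction in colour. ADGRB2 lies at 0.33 and -0.71, and C1orf50 at -0.59 and 0.43.

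Pathway genes of chromosome 1 were read as 21 lists with 300 distinct members that had a row. Of these, 12 were higher and 4 lower at an unadjusted p under 0.05, that is 5.33% against 8.33% of all rows, and the lowest adjusted p was 0.435 in limma. Each list count below stands beside 3.54% of all rows higher and 4.78% lower. The median difference of the members was 0.01, and that of all rows was also 0.01. Most genes that passed are named here with their values, some of them chosen after their values were seen.

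Among 29 genes of the EVI1 family and of corepressor and chromatin complexes, 1 was higher and 1 was lower. Over all rows these shares were 3.54% and 4.78%, and the median difference of the list was -0.03. ARID4B, a subunit of the SIN3 histone deacetylase complex, measured 0.56, 0.68 and 0.37 with EVI1-AQA and 0.09, 0.33 and -0.37 with EVI1-WT. Its 3 EVI1-AQA values exceeded those of the other 21 libraries, and the difference was 0.52 ± 0.20. PHC2, a Polycomb repressive complex subunit, measured -0.12, -0.10 and -0.15 against 0.24, 0.00 and 0.25, a difference of -0.29 ± 0.12. HDAC1, a histone deacetylase that acts with corepressors, had a difference of -0.12, and SETDB1, a histone H3 lysine methyltransferase, one of -0.22. Neither passed the unadjusted threshold.

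Of 30 genes of the DNA damage response and ATM pathway, 2 were higher and 0 lower, beside 3.54% and 4.78% of all rows. USP48, a ubiquitin-specific protease, measured 0.04, 0.14 and -0.05 with EVI1-AQA against -0.42, -0.08 and -0.43 with EVI1-WT, a difference of 0.35 ± 0.14. PHLDA3, a p53 target that restrains AKT, measured 2.48, -0.01 and 0.02 against -0.27, 0.04 and -0.31. Its difference of 1.01 ± 0.44 rested on the library labelled EVI1-AQA replicate 1 and was 0.13, with an unadjusted limma p of 0.577, without the doubted libraries.

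PHLDA3 was not alone in this library. For 9 of the 30 DNA damage genes the library labelled EVI1-AQA replicate 1 had the highest value of all 24, against 5.92% of all rows, and for 0 of the 30 it had the lowest, against 3.90% of all rows. This count was made after the values were seen. BTG2, an antiproliferative p53 target, was 1.47 in this library and at most 0.47 in the other 23. GADD45A, a stress-induced p53 target that acts in growth arrest, was 1.59 against at most 1.38.

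The p53 homologue TP73 reached 0.69 there and the stress kinase PLK3 0.85, and the p53 inhibitor MDM4 reached 0.40. EXO1, an exonuclease of mismatch repair and end resection, UBE2T, a ubiquitin-conjugating enzyme of the Fanconi anaemia pathway, and KIF2C, a mitotic kinesin, completed the 9. PHLDA3 and BTG2 were the 2 rows of chromosome 1 in which this library exceeded the other 23 by more than 1 on the log2 scale. In EVI1-AQA replicates 2 and 3, GADD45A measured -0.25 and -0.06, and BTG2 0.05 and -0.20. The median difference of the list was 0.17 in batch 1, -0.05 in batch 2 and -0.09 in batch 3, and in the fit it was 0.07 with and -0.15 without the doubted libraries. Among 28 mitosis genes, too, this library was the highest of the 24 in 6 (ASPM, CDC20, KIF14, KIF2C, NEK2 and PSRC1) and the lowest in 0. The part of the doubted label in these values was not tested.

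**Figure D5:**
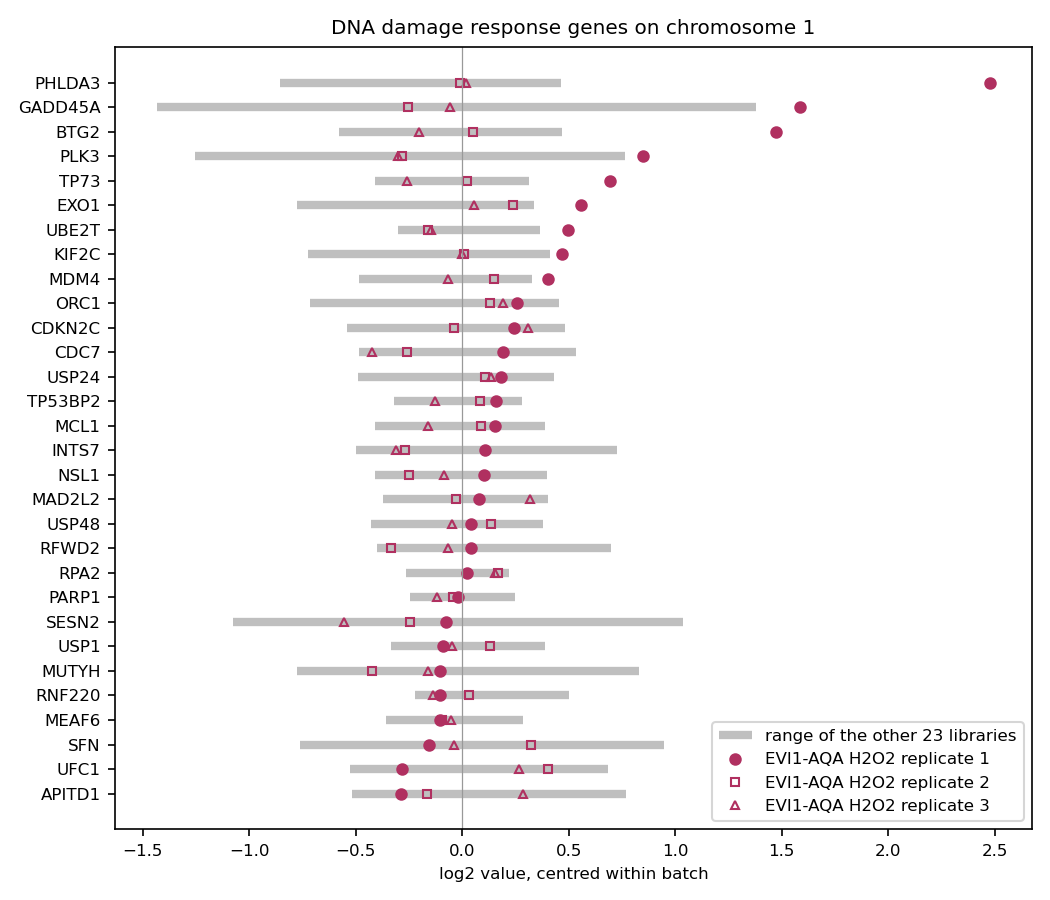
Log2 values centred within batch (horizontal axis) of the 30 DNA damage response genes with a chromosome 1 row. Grey bars span the other 23 libraries, filled circles show EVI1-AQA H2O2 replicate 1 and open squares and triangles replicates 2 and 3, and the filled circle lies beyond the bar in 9 genes, farthest for PHLDA3 at 2.48.

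Immediate early and stress genes had a median difference of -0.21, from -0.46 to 0.35, over 11 rows. Within batches this median was -0.09, -0.31 and -0.29, and without the doubted libraries it was -0.20. HES4, a transcriptional repressor of the Notch pathway, was lower at -0.36, -0.57 and -0.18 against 0.04, -0.14 and 0.13 (-0.38 ± 0.16), but corrected for GC content and length it differed by -0.14, with an unadjusted limma p of 0.387. The receptor inhibitor ERRFI1 differed by -0.37, -0.68 and -0.33 in batches 1 to 3. The stress transcription factor ATF3 differed by -1.06, -0.29 and -0.04, and JUN, a subunit of AP-1, by -0.94, -0.19 and 0.17. For ATF3 and JUN the difference was largest in batch 1, which holds the doubted EVI1-AQA library, and none of these 3 genes passed. ERRFI1 passed for the interaction, at -0.78 ± 0.35.

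MAPK signaling genes passed in 0 of 24 rows, with a median of 0.03. MAPKAPK2, the kinase downstream of p38, had a difference of -0.27, with an unadjusted limma p of 0.0569. MKNK1, a kinase that phosphorylates the cap-binding factor eIF4E, had -0.23, -0.23 and -0.40 with EVI1-AQA against 0.18, -0.13 and 0.24 with EVI1-WT in untreated cells, and 0.20, 0.11 and 0.20 against -0.02, 0.08 and -0.18 with H2O2. The interaction was 0.59 ± 0.21, with an adjusted p of 0.606 in limma.

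Death receptor and apoptosis genes passed in 0 of 10 rows. The largest difference there was that of BCL10, an adaptor of NF-kappaB activation, at -0.42, and CASP9, the initiator caspase of the mitochondrial pathway, had a difference of 0.00. The fucose metabolism genes FUCA1, a lysosomal fucosidase, and FPGT, a pyrophosphorylase of the GDP-fucose salvage route, had differences of -0.05 and -0.02, and neither passed.

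Among 34 splicing factors, 2 (PRPF38B and SFPQ) were higher and 0 were lower, beside 3.54% and 4.78% of all rows. SFPQ, a paraspeckle and splicing protein, measured 0.28, 0.05 and 0.05 against -0.20, -0.32 and -0.37, a difference of 0.43 ± 0.18 that was 0.32, with an unadjusted limma p of 0.189, without the doubted libraries. The RNA helicase MOV10 differed by 0.17, 0.61 and 0.52 in batches 1 to 3 (0.43 ± 0.18), 1 of 21 helicase and RNA surveillance genes to pass, and had an unadjusted limma p of 0.0589 without EVI1-WT replicate 2.

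Of 28 mitosis genes, CENPF, a kinetochore protein, and TPR, a nuclear pore and spindle checkpoint protein, were higher. That is 2 higher and 0 lower, beside 3.54% and 4.78% of all rows. CENPF differed by 0.91, 0.05 and 0.84 in batches 1 to 3 (0.60 ± 0.26) and TPR by 0.40, 0.12 and 0.73 (0.41 ± 0.17). In both, EVI1-WT replicates 1 and 3 were the 2 lowest of the 6 libraries. Without EVI1-AQA replicate 1 CENPF differed by 0.44, with an unadjusted limma p of 0.148. SNHG12, a snoRNA host gene, was 0.50, 0.21 and 0.70 with EVI1-AQA and 0.02, -0.03 and -0.15 with EVI1-WT. The difference was 0.52 ± 0.20, and without the doubted libraries its unadjusted limma p was 0.0686. Of the 3 snoRNA host rows 1 was higher and 0 were lower, beside 3.54% and 4.78% of all rows. The median difference of that list was -0.03 and its lowest -0.41.

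In the metabolic and proteostasis lists, GLRX2, a mitochondrial glutaredoxin, was higher by 0.54, 0.65 and 0.08 in batches 1 to 3 (0.42 ± 0.17), 1 of 16 thiol antioxidant genes, and its unadjusted limma p was 0.100 without the doubted libraries. SLC25A44, a mitochondrial carrier, was higher by 0.09, 0.56 and 0.55 (0.40 ± 0.18), 1 of 18 rows in the list of respiratory chain genes, although it is no subunit of the chain. TOR3A, a torsin ATPase of the endoplasmic reticulum, was lower, with differences of -0.43, -0.06 and -0.60 (-0.36 ± 0.14), 1 of 23 folding and endoplasmic reticulum stress genes. For the interaction, TOR3A (-0.57 ± 0.19), TOR1AIP1 (-0.70 ± 0.23), DNAJB4 (-0.80 ± 0.31) and ERO1LB (-0.42 ± 0.20) passed with a fall, 4 of the 23 beside 4.11% of all rows, and their adjusted p was between 0.606 and 0.657 in limma.

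The 4 proteasome, 5 cytosolic ribosomal protein, 8 mitochondrial ribosomal protein, 12 glycolysis and pentose phosphate, 8 cholesterol and 9 tRNA synthetase and serine synthesis rows gave 0 calls. In the TGF-beta and Wnt list of 14, DVL1, the dishevelled protein that relays Wnt signals, was lower, with differences of -0.09, -0.52 and -0.67 in batches 1 to 3 (-0.42 ± 0.17), along with HES4, which stands in that list too. PYGO2 was named from the whole chromosome and not from this list.

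Composition differed between the rows called in each direction. The 33 coding rows called higher on chromosome 1 had a median GC content of 45.5% and a median transcript length of 4760 nt, the 44 called lower 56.5% and 2902 nt, and all 1045 coding rows 47.7% and 3657 nt. Across coding rows, Spearman's correlation of the difference with length was 0.167, 0.124 and 0.0563 in batches 1, 2 and 3, and with GC content -0.157, -0.0322 and 0.0369. A correction for both was applied to the coding rows of chromosome 1 alone. With it, 74 of the 92 chromosome 1 calls remained. This count includes calls of pseudogene and noncoding rows, whose values were left uncorrected, so it tests the coding calls only. KCNC4 and PRRC2C, among the 12 selected in each direction, no longer passed, nor did TPR, CENPF, HES4 and DVL1 among the list members. By gene type, 7 of 36 pseudogene rows were higher and 1 was lower, against 33 and 44 of 1045 coding rows and 2 and 5 of 48 long noncoding RNA rows. The part of composition in the differences was not tested further.

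Over the whole table, 1 row reached an adjusted p under 0.05 in limma, and it was lower in EVI1-AQA. Its label lies on chromosome 19, so it is not given as a gene. It measured -1.24, -1.45 and -1.47 with EVI1-AQA against 0.13, 0.32 and 0.49 with EVI1-WT, a difference of -1.70 ± 0.26 with an adjusted p of 0.0294 in limma. The untreated difference of this row was -0.15, and its 3 EVI1-AQA H2O2 values lay below all other 21 libraries. The table held 0 such rows without EVI1-AQA replicate 1, without EVI1-WT replicate 2 and without both, and 0 without all libraries of batch 2 or of batch 3.

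The EVI1-AQA H2O2 libraries lay together below the other 21 in 41 rows (0.354%) and above them in 30 (0.259%). On chromosome 1 these were ADGRB2, CROCC and KIAA2013 below, and ARID4B, C1orf27, CDK11B, GPATCH2, PRPF38B and RP5-827C21.1 above, a set that was read off the values. CROCC, the rootletin gene of the ciliary rootlet, differed from EVI1-WT by -0.17 ± 0.14 and GPATCH2 by 0.21 ± 0.17, and neither passed.

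The study's own list of transcripts was chosen across the 8 groups of these same samples and is not independent evidence. Of the list's rows, 306 (23.4%) passed between EVI1-AQA and EVI1-WT under H2O2, 97 higher and 209 lower, and 92 (7.04%) passed without H2O2, 55 higher and 37 lower. The interaction passed in 287 of its rows. On chromosome 1 the list has 128 rows, of which 25 passed under H2O2.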

How the data were processed

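The authors prepared QuantSeq 3' libraries from polyadenylated RNA, annotated them by Ensembl on GRCh38, kept transcripts above an FPKM of 10, and deposited log2 values of 11579 transcripts, normalised in Qlucore Omics Explorer, for 24 samples. The aligner is not given in the sources used here. The mean of each transcript is 0 in each batch (largest departure 4.5e-06), so depth is unknown and no interval that needs it is given, and 3 samples a group limit the precision.

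Group means of all 24 samples were fitted with limma 3.58.1 (R 4.3.3) with the batch, which equals the replicate number in the labels, as a block, leaving 14 residual degrees of freedom. Differences are on the log2 scale with limma's SE. Tests were two-sided, with Benjamini-Hochberg adjustment over all rows and thresholds of 0.05. A two-group test of the study's kind, without block or moderation but over all rows, was an alternative, along with other normalizations, sample sets and left-out replicates. The counts that the study reported from such tests were against the empty vector, among transcripts selected by its group ANOVA. The fit was tested on simulated data. Identifiers were matched to GENCODE v44 (10892 found, 94.1%).

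The members, lists and tests were chosen with earlier results of these data known. Named genes are the 12 lowest by p in each direction with the same direction in all batches, the 5 lowest in each direction for the interaction, and list members, and the results of some of them are not reported here. List counts without the libraries that go against their labels and a correction for GC content and length were added after the data were seen. Figures were drawn with Python 3.11.15 and matplotlib 3.10.9. Proteins are not shown here.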

Additional observations from a re-analysis of the deposited data

How the results depend on the processing

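The deposited values carry no depth, and each group has 3 libraries, of which 1 in each goes against its label. At an unadjusted p under 0.05, the fit without the replicate block called 1216 rows between EVI1-AQA and EVI1-WT under H2O2, 552 untreated and 1133 for the interaction, against 964, 390 and 879 with the block. At an adjusted p under 0.05 it called 2 rows in place of 1 under H2O2, and it changed the call of 0 named genes. Other settings changed more of the 48 results of named genes. At the unadjusted threshold 16 were lost without replicate 1, 16 without replicate 2 and 22 without replicate 3. The two-group test of the study's kind on the 6 libraries lost 18 of the 38 results under H2O2. The batch number given for each sample pairs the libraries, and the centring within batches leaves no independent check of this. Leaving out 1 replicate gave 509 to 960 rows under H2O2, 310 to 472 untreated and 509 to 925 for the interaction, and 43 to 77 in place of 92 on chromosome 1, with the fewest rows under H2O2, on chromosome 1 and for the interaction without replicate 3. Without the libraries labelled EVI1-AQA replicate 1 and EVI1-WT replicate 2 the counts were 1179 under H2O2, 1224 for the interaction and 103 on chromosome 1, and 1 row had an adjusted interaction p under 0.05 in limma. Fits to the 6 libraries alone called 1079 rows with moderation and 969 by a two-group test of the study's kind over all rows. On chromosome 1 the first gave 55 higher and 43 lower in place of 42 and 50, a split that the second shared at 49 and 39. Centring on medians and quantile normalization gave 962 and 1054 rows.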
